A study of Mus musculus with 15 samples.

Results

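Fatty acid and glycerolipid synthesis was followed through 40 genes in interscapular brown adipose tissue of mice given an activator of the FGF21 receptor. The genes were chosen by gene symbol for their known function, with earlier results of these data known. Of the 40, 39 had a probe set that carries their symbol alone, among 18194 genes with such a probe set on the array, and all 39 lay above the low-intensity filter, among 13174 genes tested. Gk, glycerol kinase, had no such probe set and was not analysed here. The brightest such probe set, by its mean across the 15 arrays, stood for each gene, a choice that does not use the groups.

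The 15 samples came from adult male C57BL/6N mice of wild-type genotype kept on a high-fat diet, 5 per group, and the design calls them biological replicates. In the first group bFKB1, an agonistic antibody against the complex of the receptor FGFR1 and its co-receptor beta-Klotho (KLB), was given once into the peritoneum at 10 mg/kg (samples aFGFR1/KLB 41 to 45). In the second group human FGF21, the hormone that acts through the same complex, was injected at 1 mg/kg, 2 mg/kg in all per day (samples FGF21 36 to 40). For the control group (control 31 to 35) the labels name no injected substance, and tissue of all groups was taken at day 5. The treatments differed in agent, dose and number of injections together, so that these cannot be told apart.

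Brown adipocytes burn fatty acids to make heat, and they also build fatty acids from glucose carbon and store them as triglyceride. In the cytosol citrate and acetate give acetyl-CoA, acetyl-CoA carboxylase makes malonyl-CoA, and fatty acid synthase builds palmitate, which is then elongated and desaturated. Fatty acids are esterified step by step onto glycerol-3-phosphate to give phosphatidate, from which one branch leads through diacylglycerol to triglyceride and another through CDP-diacylglycerol to phospholipids. SREBP-1c, encoded by Srebf1, and ChREBP, encoded by Mlxipl, are the transcription factors best known for switching this program on in response to insulin and glucose.

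Values below are the deposited RMA intensities on the log2 scale, where a difference of 1 is a 2-fold change. A fold change is given as a difference of log2 group means ± its standard error. A gene was called when limma's p, adjusted over all 13174 genes, was under 0.05. Other probe sets of a gene were called at the same threshold in a separate limma fit. That fit held every single-symbol probe set above the filter, with p adjusted over those probe sets. Both treatments were compared with the same 5 controls, so the comparisons are not independent of each other. In such tissue pieces fewer cells of a type and less RNA per cell cannot be told apart.

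Some samples stood apart before any comparison was made. Control 34 had the lowest level of the 5 controls in 30 of the 39 genes, and FGF21 36 the lowest of the FGF21 samples in 21. The same 2 samples had the highest means over a list of 10 macrophage markers, 11.20 in FGF21 36 and 10.80 in control 34, against at most 10.03 in any other sample. They were also highest on the fibroblast and matrix list, 12.57 in FGF21 36 and 12.80 in control 34, against at most 11.67 elsewhere. On the list of adipocytes of any kind they were lowest, 13.11 in FGF21 36 and 13.00 in control 34. On the brown adipocyte list they were lowest too, 12.07 in FGF21 36 and 12.03 in control 34. The macrophage markers' summed intensity was 9068 to 14181 with the antibody, 6832 to 38775 with FGF21 and 5809 to 31980 in controls. The skeletal muscle list (9 of 9 above the filter) summed to 2204 to 101474 with the antibody, 2236 to 92464 with FGF21 and 10627 to 30142 in controls. All 8 brown adipocyte markers were above the filter, with sums of 95164 to 105289 with the antibody, 80998 to 99838 with FGF21 and 83704 to 95299 in controls. By the mean log2 level of that list every antibody sample (12.38 to 12.75) lay above every control (12.03 to 12.30), and the FGF21 samples ran over 12.07 to 12.54. The list holds Elovl3, at 11.77 to 12.65 in the antibody samples and 9.54 to 10.52 in controls. Without Elovl3 the separation does not hold, since antibody sample 45 then lies below some controls. The white adipocyte markers, 3 of 5 above the filter, summed to 994 to 2491 with the antibody, 900 to 5614 with FGF21 and 2796 to 4091 in controls, and their mean log2 levels overlapped (6.47 to 7.11 with the antibody, 6.97 to 7.21 in controls). The endothelial list (5 of 5) summed to 2452 to 3227 with the antibody, 2367 to 3659 with FGF21 and 2089 to 2764 in controls. The fibroblast and matrix list (7 of 7) summed to 16902 to 26047 with the antibody, 20828 to 65154 with FGF21 and 19419 to 74329 in controls. Of the T and B cell markers 2 of 4 measured were above the filter, and the list summed to 170 to 208 with the antibody, 176 to 200 with FGF21 and 184 to 200 in controls. Of the liver markers 2 of 3 measured were above it, and the list summed to 141 to 172 with the antibody, 151 to 175 with FGF21 and 134 to 208 in controls. The part of these markers in the results below was not tested, beyond fits without the 2 samples or with the macrophage level as a covariate, whose counts are given below, with the genes called under the covariate.

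The 5 genes grouped as regulators were Srebf1, Mlxipl, Thrsp, Mid1ip1 and Pnpla3, the last itself a known target of SREBP-1c and ChREBP in liver. Of these, 1 fell with the antibody (2.49% of all genes were called lower) and 4 fell with FGF21 (3.68%). None was called higher, except Mlxipl with FGF21 once the macrophage level was a covariate. Of the transcription factors, in the fit of all samples, Srebf1 was called lower with FGF21 alone and Mlxipl with neither treatment. Promoter sequences of 32 of the 40 genes were listed in RefSeq (GRCm38.p6, 250 bases before to 50 after each start, 43 starts). Those of 4 called genes with 1 listed start each are shown because they belong to a regulator lowered by both treatments, to the gene with the largest called fall, to an enzyme of acetyl-CoA supply that fell, and to an enzyme that rose. Capitals mark every match on either strand to the CCAAT box (CCAAT) and the GC box (GGGCGG), and each sequence runs 5′ to 3′ along the strand of its gene.
Mid1ip1 (chrX:10717115-10717414, plus strand): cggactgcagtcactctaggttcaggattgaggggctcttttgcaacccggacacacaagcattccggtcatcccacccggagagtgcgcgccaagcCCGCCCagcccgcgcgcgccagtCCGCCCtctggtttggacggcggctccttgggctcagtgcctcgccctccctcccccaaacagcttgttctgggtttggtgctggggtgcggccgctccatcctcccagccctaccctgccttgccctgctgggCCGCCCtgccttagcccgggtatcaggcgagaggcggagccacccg
Pnpla3 (chr15:84167566-84167865, plus strand): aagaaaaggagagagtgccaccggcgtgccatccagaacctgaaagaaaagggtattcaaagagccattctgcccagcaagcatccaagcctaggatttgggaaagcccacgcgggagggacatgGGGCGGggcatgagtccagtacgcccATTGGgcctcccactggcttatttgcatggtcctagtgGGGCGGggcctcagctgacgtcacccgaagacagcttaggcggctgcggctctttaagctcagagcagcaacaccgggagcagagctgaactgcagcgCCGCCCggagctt
Acss2 (chr2:155517793-155518092, plus strand): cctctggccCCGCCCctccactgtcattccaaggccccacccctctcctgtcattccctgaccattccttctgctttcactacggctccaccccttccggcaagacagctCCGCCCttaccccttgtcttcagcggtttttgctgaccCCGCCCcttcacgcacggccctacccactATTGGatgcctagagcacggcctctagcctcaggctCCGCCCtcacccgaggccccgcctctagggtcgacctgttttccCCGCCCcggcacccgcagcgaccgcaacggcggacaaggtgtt
Hsd17b12 (chr2:94157860-94158159, minus strand): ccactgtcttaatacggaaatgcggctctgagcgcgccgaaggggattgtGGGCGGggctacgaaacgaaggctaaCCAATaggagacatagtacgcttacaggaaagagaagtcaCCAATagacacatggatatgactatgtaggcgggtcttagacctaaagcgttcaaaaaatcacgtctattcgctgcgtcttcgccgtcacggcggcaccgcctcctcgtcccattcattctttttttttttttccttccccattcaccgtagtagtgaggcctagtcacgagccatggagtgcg

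A CCAAT box was found in 22 of the 43 promoters (51.2%), against 37.4% of all 32851 listed promoters of the same length, and a GC box in 26 (60.5%), against 35.7%. The E-box CACGTG, the core to which ChREBP and USF factors bind, was in 4 of 43 (9.3%), those of Gk, Lpin2, Lpin3 and Mlxipl, against 7.15%. One form of the sterol regulatory element bound by SREBP proteins, TCACNCCAC, was in 1 of 43 (2.33%), that of Mlxipl, against 1.24%. Both strands were searched, the CCAAT and GC boxes can share bases, and a match describes only the letters in this window.

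The first question is which genes of the program differ from control once the antibody has activated the receptor complex. Of the 39 genes 4 were called, 2 higher and 2 lower, or 10.3%, against 5.18% of all genes tested (2.69% higher and 2.49% lower). The genes that rose were Gpam and Hsd17b12, and those that fell were Acaca and Mid1ip1. At an unadjusted p under 0.05 there were 15 of 39, against 19.4% of all genes. The groups did not overlap in 5 genes (12.8%), 2 higher and 3 lower, against 8.61% of all genes (4.44% higher and 4.17% lower).

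With FGF21 the count was 10 of 39, 2 higher and 8 lower, or 25.6%, against 6.32% of all genes tested (2.64% higher and 3.68% lower). Srebf1, Thrsp, Mid1ip1, Pnpla3, Acaca, Acss2, Lpin1 and Cds1 fell, and Gpam and Cds2 rose. At an unadjusted p under 0.05 there were 20 of 39, against 20.4% of all genes, and the groups did not overlap in 5 (12.8%), 1 higher and 4 lower, against 5.25% of all genes (2.37% higher and 2.88% lower). Acaca, Mid1ip1 and Gpam were called with both treatments, which is 75% of the antibody's calls and 30% of FGF21's. Of the 39 genes 28 were called with neither.

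**Figure D1:**
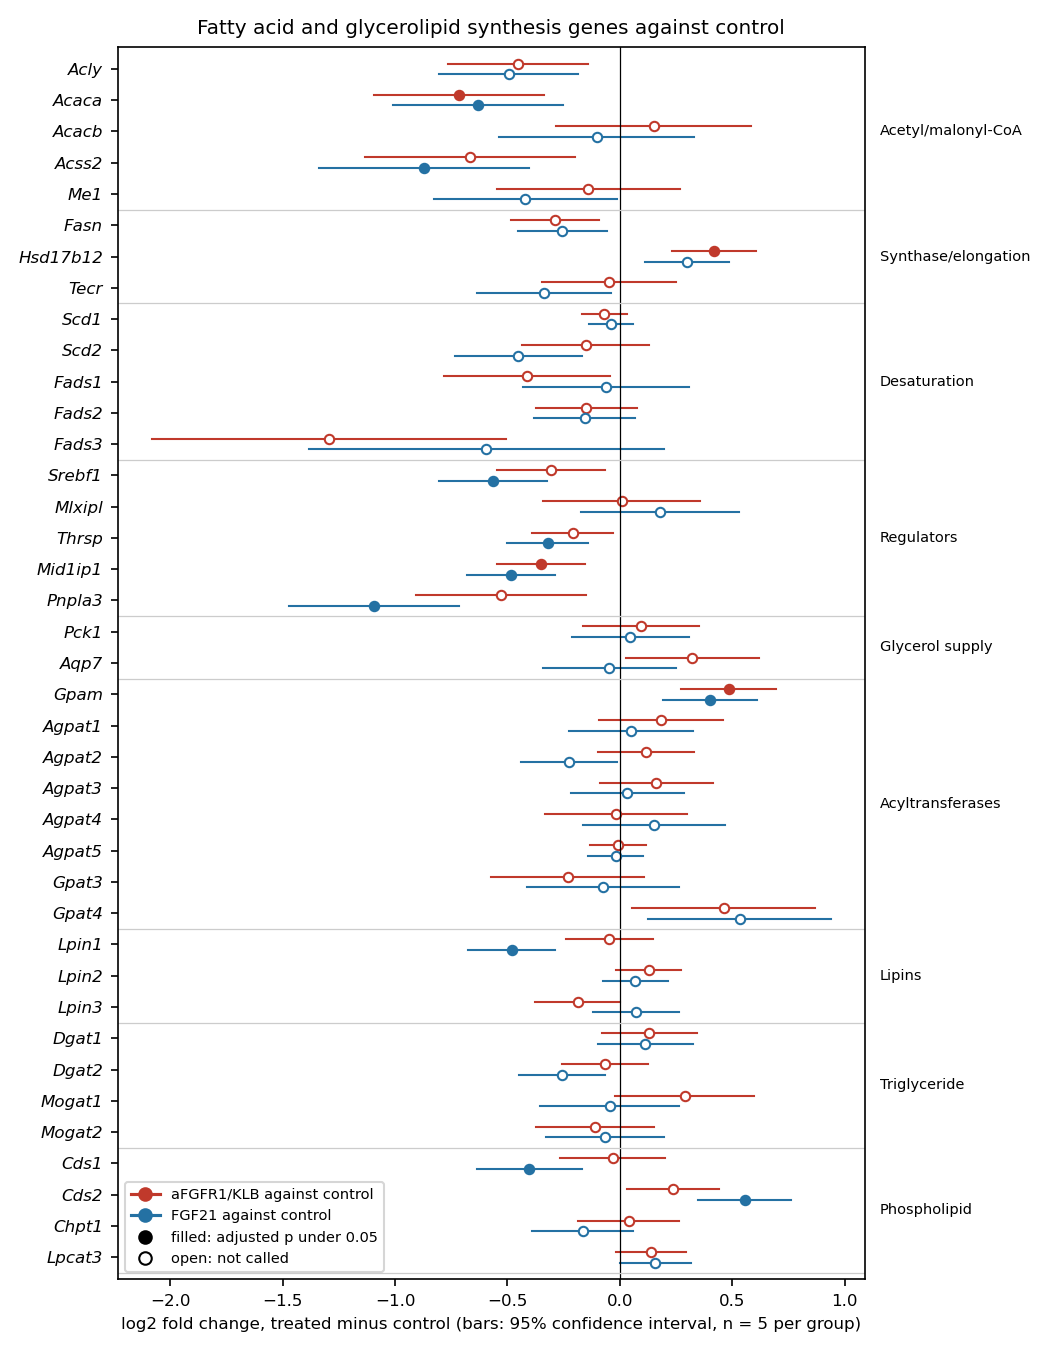
Log2 fold change against control of the 39 genes for the antibody and for FGF21, with 95% confidence intervals as bars and called genes filled. Genes of malonyl-CoA supply, desaturation and regulation lie mostly left of 0, while Gpam lies right of 0 with both treatments and Pnpla3 lies furthest left with FGF21 (−1.09).

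These counts rested on few samples. Without control 34 they were 9 with the antibody (8.65% of all genes were called) and 16 with FGF21 (15.9%), and without control 34 and FGF21 36 together 12 with the antibody (12.4%) and 17 with FGF21 (16.2%). With the antibody the count was 2 without control 31, 32 or 33 or without antibody sample 41, 42 or 43, and in each of these fits the 2 genes were Gpam and Hsd17b12, while 2.55% to 3.45% of all genes were called. With FGF21 it was 6 without control 31 or 32 or FGF21 40, and 5 without control 33 or FGF21 39, with 3.51% to 4.28% of all genes called in these fits. With the macrophage level as a covariate, an alternative chosen with these data in view, the counts were 12 with the antibody (12.6% of all genes) and 14 with FGF21 (10.4%). Those added to the 4 genes of the antibody were Acly, Fasn, Acss2, Fads1, Fads3, Thrsp, Pnpla3 and Gpat4, and those added to the 10 of FGF21 were Scd2, Mlxipl, Gpat4 and Hsd17b12. In that fit Acaca differed by −0.73 with the antibody and by −0.44 with FGF21 (adjusted p = 0.0111). When arrays were centred on 39 ribosomal protein genes, 0 remained called with the antibody (165 of all genes, and 9 of the 39 at an unadjusted p under 0.05) and 1, Pnpla3, with FGF21 (193 of all genes). A fit of only the 2 groups compared ended the calls of Mid1ip1 with the antibody and of Acaca, Acss2, Thrsp, Gpam and Cds1 with FGF21.

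The signs of the fold changes were counted separately for a fatty acid side, which took in the regulators, and a glycerolipid side, which took in glycerol supply. Of the 18 genes of acetyl-CoA and malonyl-CoA supply, chain synthesis, desaturation and regulation, 15 were lower with the antibody and 16 with FGF21, called or not, with median fold changes of −0.25 with the antibody and −0.38 with FGF21, against −0.02 over all genes in each comparison. Of the 21 measured genes of glycerol supply, esterification and phospholipid branches 13 were higher with the antibody (median 0.12) and 11 with FGF21 (median 0.03). With ribosomal centring 13 of the 18 were lower with the antibody and 16 with FGF21, and 18 of the 21 were higher with the antibody and 11 with FGF21. The whole set with the antibody then turned to 23 higher of 39, against 16 higher without centring. The division was drawn with earlier results of these data known and no test was made of it.

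The genes also differed in their spread. The median standard deviation between samples was 0.11 with the antibody, 0.21 with FGF21 and 0.21 in controls, and 34 of the 39 genes varied less among the antibody samples than among the controls. Without control 34 the controls' median was 0.11 and 16 of the 39 varied less with the antibody, so 1 control sample decided that contrast.

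**Figure D2:**
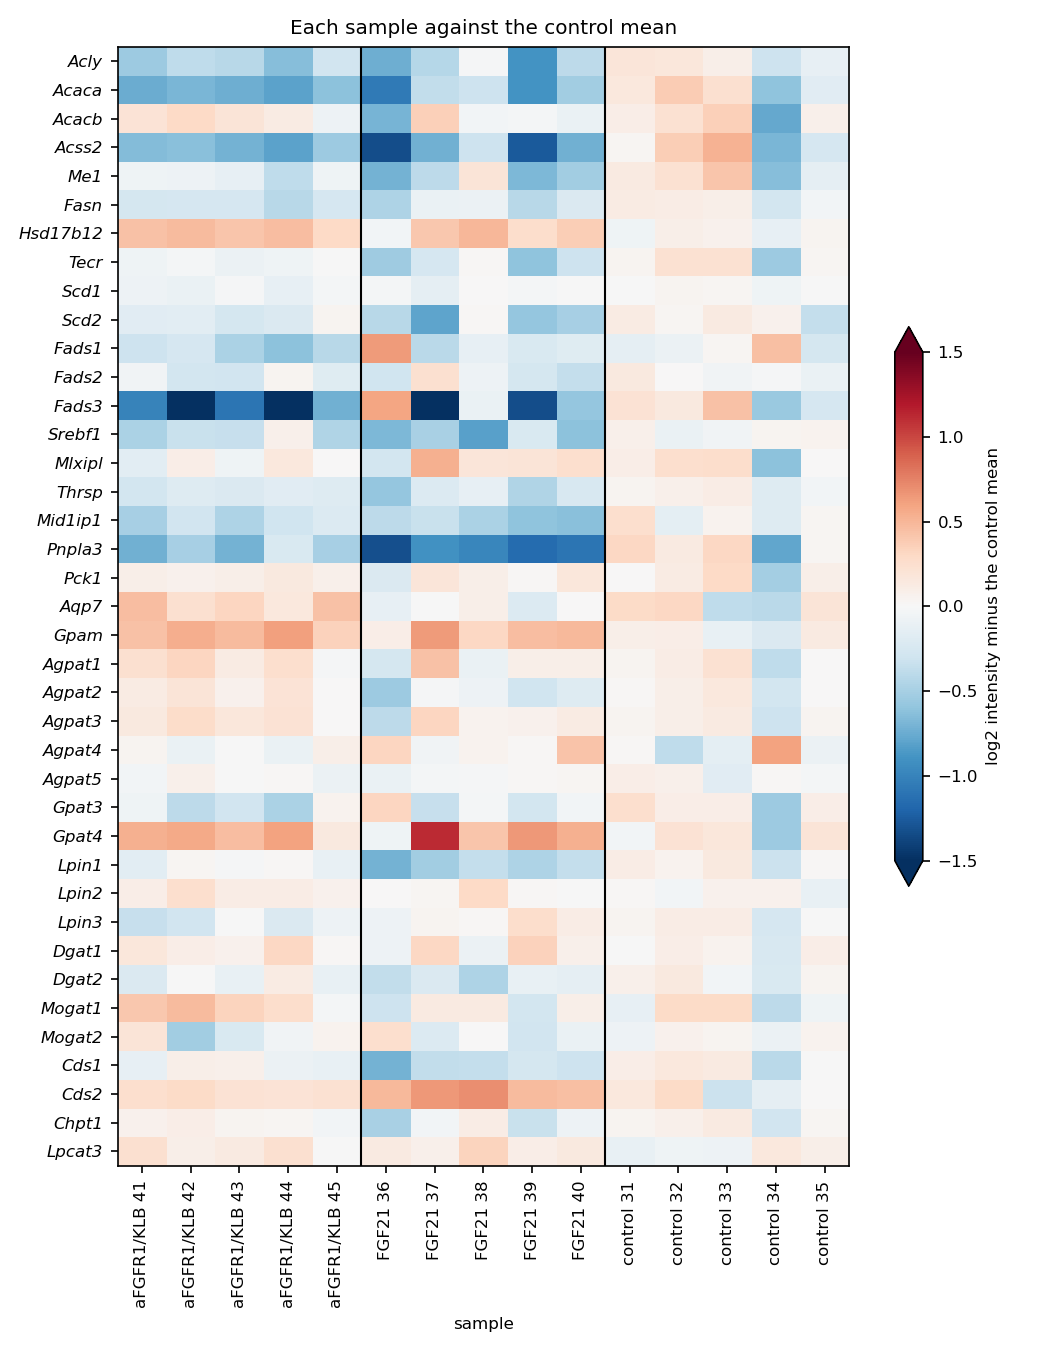
Log2 level of each of the 39 genes in each of the 15 samples minus the control mean of the gene, with antibody samples at the left, FGF21 samples in the middle and controls at the right. Control 34 departs from the other controls in many genes, and Pnpla3 and Acaca are below the control mean in all 10 treated samples.

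Among the regulators, Srebf1, the gene of SREBP-1, was at 10.94, 11.07, 11.06, 11.48 and 10.96 in the antibody samples, 10.73, 10.92, 10.59, 11.18 and 10.79 in the FGF21 samples and 11.48, 11.31, 11.35, 11.44 and 11.45 in the control samples. All FGF21 samples lay below all controls, whereas antibody sample 44 lay among the controls and the other 4 below them. The fold change was −0.56 ± 0.11 (adjusted p = 0.00892) with FGF21, where the level fell by 32.3%. With the antibody it was −0.31 ± 0.11 (adjusted p = 0.137), with an adjusted p of 0.0447 without antibody sample 44. The FGF21 call held in all 15 fits that left out 1 sample.

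Mid1ip1 encodes a partner of acetyl-CoA carboxylase that promotes its assembly into active polymers. Its level was 9.84, 10.05, 9.87, 10.04 and 10.14 in the antibody samples, 9.95, 10.00, 9.87, 9.73 and 9.71 in the FGF21 samples and 10.59, 10.19, 10.39, 10.15 and 10.37 in the control samples. Every sample of either treatment lay below every control. Its fold change was −0.35 ± 0.09 (adjusted p = 0.0404) with the antibody and −0.49 ± 0.09 (adjusted p = 0.0063) with FGF21. The FGF21 call held in all 15 fits without 1 sample. The antibody call ended in 9, with adjusted p of 0.05002 to 0.101, namely without control 31, 32, 33 or 35, FGF21 38 or antibody sample 41, 42, 43 or 44.

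Thrsp, also called Spot 14, is the paralog of Mid1ip1 and is abundant in lipogenic tissues. It was at 14.02, 14.10, 14.08, 14.12 and 14.10 in the antibody samples, 13.72, 14.08, 14.17, 13.84 and 14.05 in the FGF21 samples and 14.33, 14.37, 14.41, 14.10 and 14.26 in the control samples. In FGF21 only sample 38 and in the antibody group 1 sample, 44, reached above the lowest control, control 34. Against control it differed by −0.21 ± 0.08 (adjusted p = 0.175) with the antibody, not called, and −0.32 ± 0.08 (adjusted p = 0.034) with FGF21. The FGF21 call ended without control 31, 32, 33 or 35 or FGF21 36, 39 or 40, with adjusted p of 0.0514 to 0.0917, and with the mean of all its probe sets (adjusted p = 0.0543).

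Pnpla3, a lipid droplet protein whose gene is a known target of SREBP-1c and ChREBP in liver, showed the largest called change of the set. It was at 8.83, 9.05, 8.84, 9.33 and 9.05 in the antibody samples, 8.23, 8.64, 8.58, 8.40 and 8.45 in the FGF21 samples and 9.86, 9.69, 9.86, 8.77 and 9.58 in the control samples. Each FGF21 sample lay below each control and below each antibody sample, and the antibody samples lay between, overlapping the controls through control 34. The fold change with FGF21 was −1.09 ± 0.18 (adjusted p = 0.00253), so that its level fell by 53.2%. With the antibody it was −0.53 ± 0.18 (adjusted p = 0.104), and it was called without control 34. The FGF21 call held in all 15 fits without 1 sample and under ribosomal centring.

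Mlxipl, the gene of ChREBP, was called with neither treatment in the fit of all 15 samples without covariates. Its level was 11.09, 11.35, 11.19, 11.41 and 11.26 in the antibody samples, 10.97, 11.79, 11.44, 11.45 and 11.51 in the FGF21 samples and 11.35, 11.50, 11.52, 10.64 and 11.26 in the control samples. The groups overlapped, with control 34 lowest of all samples. The log2 difference was 0.01 ± 0.16 (adjusted p = 0.988) with the antibody and 0.18 ± 0.16 (adjusted p = 0.605) with FGF21. With the macrophage level as a covariate it was 0.36 with FGF21 (adjusted p = 0.00564) and −0.37 for antibody minus FGF21 (adjusted p = 0.0303), both called.

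**Figure D3:**
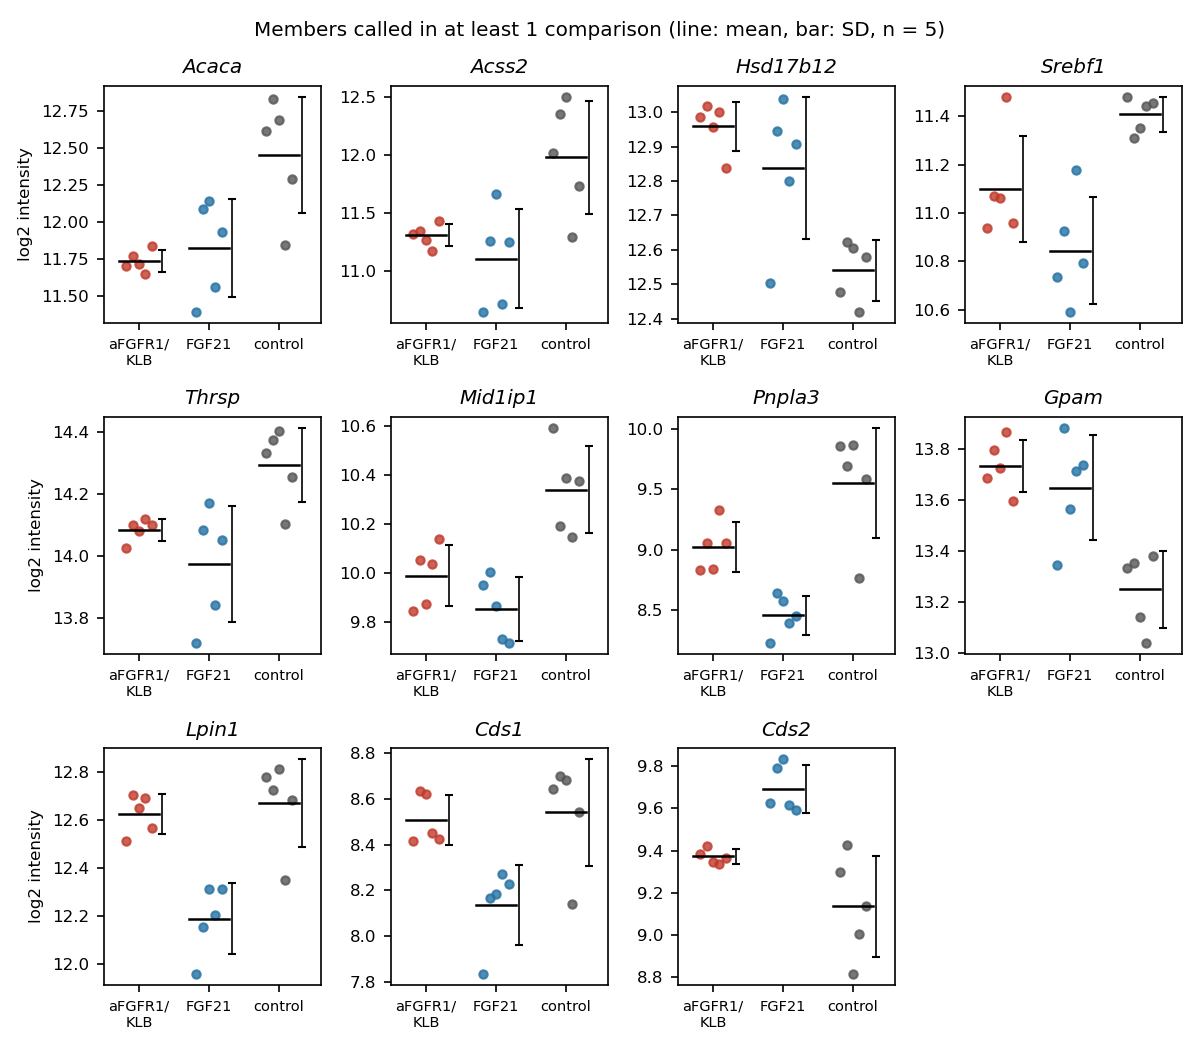
Log2 level in every sample of the 11 genes called in at least 1 comparison with control, antibody samples left, FGF21 samples in the middle and controls right, with lines at the group means and bars for the standard deviation. Mid1ip1 shows both treatments below all controls, Srebf1, Pnpla3 and Lpin1 show the FGF21 samples below all controls, and Cds2 shows them above all controls.

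Of the 5 genes of acetyl-CoA and malonyl-CoA supply, 1 fell with the antibody (2.49% of all genes did) and 2 with FGF21 (3.68%). Acaca encodes acetyl-CoA carboxylase 1, the cytosolic enzyme that makes malonyl-CoA for synthesis. Its level was 11.70, 11.77, 11.72, 11.65 and 11.84 in the antibody samples, 11.39, 12.08, 12.14, 11.56 and 11.93 in the FGF21 samples and 12.61, 12.83, 12.69, 11.84 and 12.29 in the control samples. All antibody samples lay below the lowest control, by a narrow margin, since control 34 (11.84) and antibody sample 45 (11.84) nearly met. The FGF21 samples overlapped the controls through control 34. The fold change was −0.72 ± 0.18 (adjusted p = 0.0305) with the antibody and −0.63 ± 0.18 (adjusted p = 0.047) with FGF21. The level fell by 39.1% with the antibody and fell by 35.4% with FGF21.

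Neither Acaca call was stable. The antibody call ended in 7 fits, without control 31, 32 or 33 or antibody sample 41, 42, 43 or 44, with adjusted p of 0.0640 to 0.0818. The FGF21 call ended in 13 of the 15, all but those without control 34 or FGF21 38, with adjusted p of 0.0502 to 0.126. A second probe set of Acaca gave −0.45 with the antibody and −0.38 with FGF21 and was called with neither treatment, and the mean of both ended both calls (adjusted p = 0.0747 with the antibody and 0.109 with FGF21).

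Acss2 encodes the cytosolic enzyme that turns acetate into acetyl-CoA. It was at 11.32, 11.35, 11.27, 11.18 and 11.43 in the antibody samples, 10.65, 11.26, 11.66, 10.71 and 11.25 in the FGF21 samples and 12.01, 12.35, 12.50, 11.30 and 11.73 in the control samples. Control 34 lay within the range of the treated samples, and the other 4 controls lay above every treated sample. The fold change with FGF21 was −0.87 ± 0.22 (adjusted p = 0.029), and with the antibody −0.67 ± 0.22 (adjusted p = 0.0965). The FGF21 call ended without control 31, 32 or 33 or FGF21 36 or 39, with adjusted p of 0.0538 to 0.0844, and both other probe sets of the gene were called with FGF21.

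The other genes of supply were not called on the probe set used. Acly, ATP-citrate lyase, which cuts citrate to acetyl-CoA, differed by −0.45 with the antibody and −0.49 with FGF21. Other probe sets of Acly were called, 1 of 2 with the antibody (−0.50) and 2 of 2 with FGF21 (−0.97 and −0.47). Me1, malic enzyme, a source of NADPH, differed by −0.14 with the antibody and −0.42 with FGF21. Acacb, the carboxylase at mitochondria whose malonyl-CoA restrains fatty acid oxidation, differed by 0.15 with the antibody and −0.10 with FGF21.

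Fasn, fatty acid synthase, was at 14.17, 14.18, 14.18, 14.01 and 14.17 in the antibody samples, 13.97, 14.33, 14.35, 14.02 and 14.22 in the FGF21 samples and 14.55, 14.54, 14.52, 14.15 and 14.39 in the control samples. Antibody sample 44 and FGF21 36 and 39 lay below all controls, and the other treated samples lay between control 34 and the other 4 controls. Its fold change was −0.29 ± 0.09 (adjusted p = 0.0863) with the antibody and −0.26 ± 0.09 (adjusted p = 0.122) with FGF21, called with neither. Without control 34 the adjusted p was 0.0160 with the antibody and 0.0168 with FGF21.

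Of the 2 genes of the elongation cycle, Hsd17b12 alone rose with the antibody, against 2.69% of all genes. It encodes the ketoacyl-CoA reductase of the cycle in the endoplasmic reticulum and was at 12.98, 13.02, 12.96, 13.00 and 12.84 in the antibody samples, 12.50, 12.94, 13.04, 12.80 and 12.91 in the FGF21 samples and 12.48, 12.62, 12.61, 12.42 and 12.58 in the control samples. Every antibody sample lay above every control, and FGF21 36 alone of the FGF21 samples lay among the controls. Against control it differed by 0.42 ± 0.09 (adjusted p = 0.0138) with the antibody, 33.7% higher, and the call held in all 15 fits without 1 sample. With FGF21 it was 0.30 ± 0.09 (adjusted p = 0.0551), and it was called without FGF21 36 (adjusted p = 0.00349) and under 5 of 12 other settings, the macrophage covariate among them. A second probe set gave 0.56 with the antibody, called, and 0.39 with FGF21. Tecr, which performs the last reduction of the cycle, differed by −0.05 with the antibody and −0.34 with FGF21, called with neither.

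None of the 5 desaturases was called, and all 5 had negative fold changes with each treatment in the main fit on the probe sets used. The sign did not always hold in other fits. Ribosomal centring turned that of Scd1 with the antibody to 0.026, and the other probe set of Fads1 gave 0.066 with FGF21. Without control 34 the difference of Fads1 with FGF21 was positive too. Scd1, the stearoyl-CoA desaturase that makes oleate, was at 14.91, 14.89, 14.97, 14.86 and 14.95 in the antibody samples, 14.95, 14.85, 14.99, 14.95 and 14.98 in the FGF21 samples and 14.98, 15.03, 15.01, 14.92 and 14.98 in the control samples. These levels lie next to the array maxima, of which the highest was 15.08, and differed by −0.07 with the antibody and −0.04 with FGF21. A second probe set of Scd1 gave −0.57 with the antibody and −0.40 with FGF21 and was called with neither. Scd2 differed by −0.15 with the antibody and −0.45 with FGF21, and its other probe set was called with FGF21 (−0.40).

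Fads3, a member of the front-end desaturase family, was at 8.63, 8.08, 8.54, 7.54 and 8.91 in the antibody samples, 10.22, 8.08, 9.54, 8.30 and 9.05 in the FGF21 samples and 9.85, 9.78, 10.08, 9.07 and 9.38 in the control samples, on a probe set whose pooled standard deviation was 0.64, against a median of 0.19 over the 39. Every antibody sample lay below every control, the fold change was −1.29 ± 0.37 (adjusted p = 0.0569), and it was called without control 34. With FGF21 it was −0.60 ± 0.37 (adjusted p = 0.41), and −1.03 (adjusted p = 0.0492) without control 34 and FGF21 36. Fads1 and Fads2, which make polyunsaturated fatty acids, differed by −0.41 and −0.15 with the antibody and by −0.06 and −0.16 with FGF21.

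On the side of esterification, 1 gene of 8 that acylate glycerol-3-phosphate or lysophosphatidate was called, and it rose with both treatments. Of all genes, 2.69% were called higher with the antibody and 2.64% with FGF21. Gpam encodes the mitochondrial glycerol-3-phosphate acyltransferase that commits fatty acids to glycerolipids. It was at 13.69, 13.80, 13.73, 13.87 and 13.60 in the antibody samples, 13.34, 13.88, 13.56, 13.72 and 13.74 in the FGF21 samples and 13.33, 13.35, 13.14, 13.04 and 13.38 in the control samples. All antibody samples and all FGF21 samples but FGF21 36 lay above all controls. The log2 difference was 0.48 ± 0.10 (adjusted p = 0.0127) with the antibody and 0.40 ± 0.10 (adjusted p = 0.0262) with FGF21, levels higher by 39.9% with the antibody and 32.0% with FGF21. The antibody call held in all 15 fits without 1 sample, while that of FGF21 ended without control 33 or FGF21 37, 39 or 40 (adjusted p of 0.0632 to 0.0701). A second probe set gave 0.82 with the antibody and 0.71 with FGF21 and was called with both.

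Of the other acyltransferases, Gpat4 of the endoplasmic reticulum had the largest fold change, 0.46 with the antibody and 0.53 with FGF21, called with neither. With the macrophage level as a covariate it was called with both, at 0.45 with the antibody (adjusted p = 0.0076) and 0.74 with FGF21 (adjusted p = 0.000437), and without control 34 and FGF21 36 with FGF21 (adjusted p = 0.0176). Gpat3 differed by −0.23 with the antibody and −0.07 with FGF21. Among the acyltransferases of lysophosphatidate, Agpat2, whose loss causes lipodystrophy, differed by 0.12 with the antibody and −0.23 with FGF21. Agpat1, Agpat3, Agpat4 and Agpat5 differed by −0.02 to 0.18 with the antibody and by −0.02 to 0.15 with FGF21. A second probe set of Agpat5 was called with the antibody (0.42).

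Of the 3 phosphatidate phosphatases, which make diacylglycerol, 1 fell with FGF21, against 3.68% of all genes. Lpin1, whose product also acts as a transcriptional co-activator, was at 12.51, 12.70, 12.65, 12.69 and 12.56 in the antibody samples, 11.96, 12.15, 12.31, 12.20 and 12.31 in the FGF21 samples and 12.78, 12.72, 12.81, 12.35 and 12.68 in the control samples. All FGF21 samples lay below all controls and below all antibody samples, and control 34 was nearest to them. The fold change was −0.48 ± 0.09 (adjusted p = 0.0063) with FGF21, against −0.05 ± 0.09 (adjusted p = 0.843) with the antibody. The FGF21 call held in all 15 fits without 1 sample, and a second probe set was called (−0.52). Lpin2 and Lpin3 differed by 0.13 and −0.19 with the antibody and by 0.07 and 0.07 with FGF21.

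None of the 4 acyltransferases of monoacylglycerol and diacylglycerol was called. Dgat2, which adds the last fatty acid of triglyceride, was at 13.31, 13.52, 13.41, 13.64 and 13.41 in the antibody samples, 13.16, 13.31, 13.06, 13.41 and 13.39 in the FGF21 samples and 13.60, 13.67, 13.48, 13.30 and 13.57 in the control samples. The antibody samples lay within the controls' range, while FGF21 36 and 38 lay below it. Its fold change was −0.07 ± 0.09 (adjusted p = 0.76) with the antibody and −0.26 ± 0.09 (adjusted p = 0.107) with FGF21, and with FGF21 the adjusted p was 0.0243 without control 34. Dgat1, which performs the same step, and Mogat1 and Mogat2, which make diacylglycerol, differed by 0.13, 0.29 and −0.11 with the antibody and by 0.11, −0.05 and −0.07 with FGF21.

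Neither measured gene of glycerol supply was called. Pck1, phosphoenolpyruvate carboxykinase, which in fat serves the making of glycerol-3-phosphate from pyruvate, was at 13.00, 12.99, 13.01, 13.06 and 13.00 in the antibody samples, 12.70, 13.10, 13.01, 12.93 and 13.09 in the FGF21 samples and 12.93, 13.04, 13.21, 12.40 and 13.01 in the control samples. The groups overlapped, control 34 being the lowest of all samples. Against control it differed by 0.09 ± 0.12 (adjusted p = 0.744) with the antibody and 0.05 ± 0.12 (adjusted p = 0.875) with FGF21. Aqp7, the channel through which glycerol passes the adipocyte membrane, differed by 0.32 with the antibody and −0.05 with FGF21, and its other probe set was called with the antibody (0.55).

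Of the CDP-diacylglycerol synthases, which direct phosphatidate to phosphatidylinositol and cardiolipin, Cds1 fell and Cds2 rose with FGF21 on the probe sets used. Cds1 was at 8.42, 8.63, 8.62, 8.45 and 8.42 in the antibody samples, 7.84, 8.17, 8.19, 8.27 and 8.23 in the FGF21 samples and 8.64, 8.70, 8.68, 8.14 and 8.54 in the control samples. The FGF21 samples lay below the controls apart from control 34, and the antibody samples within the controls' range. The log2 difference was −0.40 ± 0.11 (adjusted p = 0.0415) with FGF21 and −0.03 ± 0.11 (adjusted p = 0.914) with the antibody. The FGF21 call ended in 14 of the 15 fits without 1 sample, all but that without control 34, with adjusted p of 0.0519 to 0.113.

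Cds2 was at 9.39, 9.42, 9.35, 9.34 and 9.37 in the antibody samples, 9.63, 9.79, 9.83, 9.61 and 9.59 in the FGF21 samples and 9.30, 9.43, 8.81, 9.01 and 9.14 in the control samples. Every FGF21 sample lay above every control and every antibody sample. The fold change was 0.56 ± 0.10 (adjusted p = 0.00396) with FGF21 and 0.24 ± 0.10 (adjusted p = 0.187) with the antibody, and the FGF21 call held in all 15 fits without 1 sample. None of 5 other probe sets of Cds2 was called with FGF21, and their fold changes ran over −0.06 to 0.34. With the mean of all its probe sets the FGF21 fold change was 0.21 (adjusted p = 0.0775), not called. Chpt1 and Lpcat3, which make and remodel phosphatidylcholine, differed by 0.04 and 0.14 with the antibody and by −0.17 and 0.16 with FGF21.

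**Figure D4:**
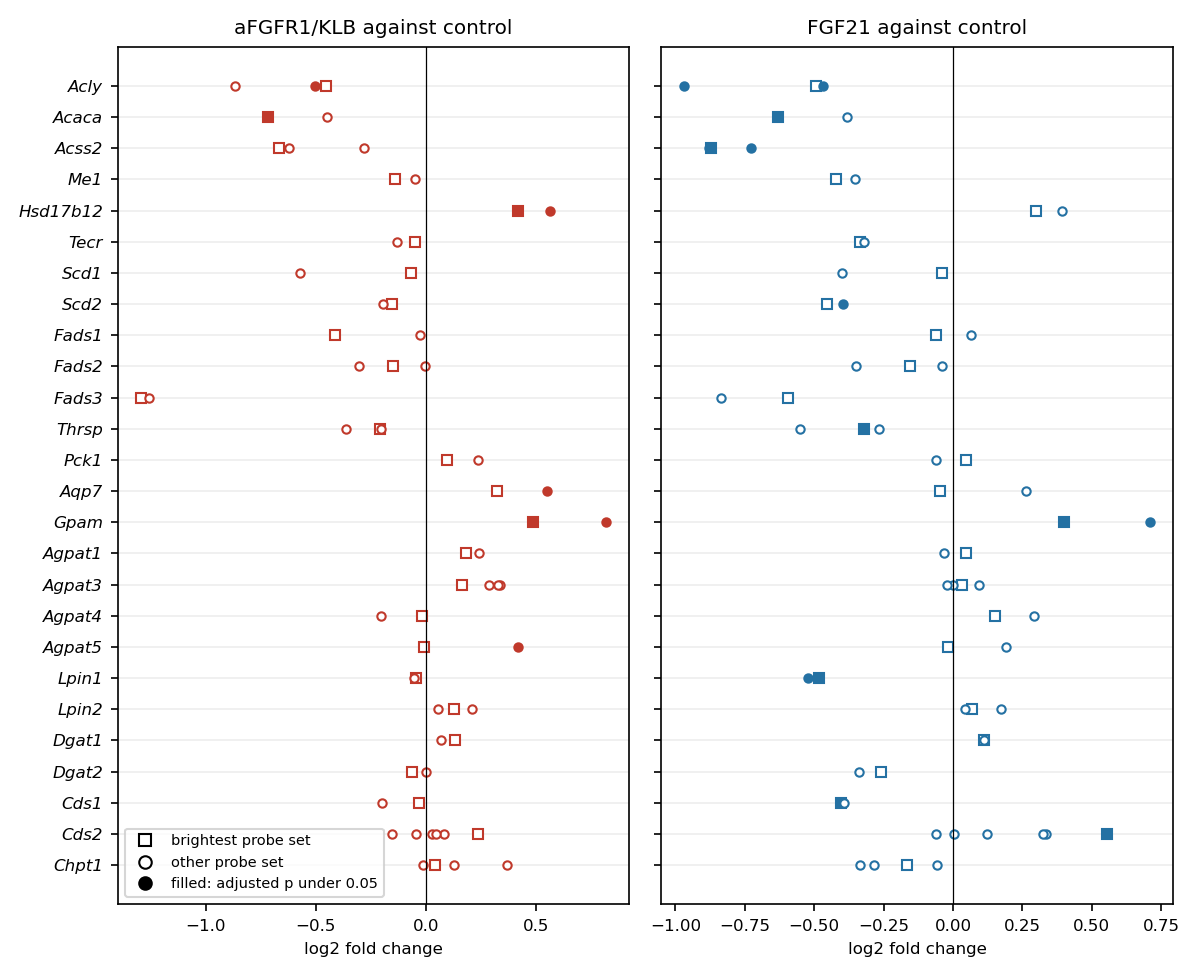
Log2 fold change against control of every probe set above the filter for genes with more than 1, with the probe set used as a square and the others as circles. Filled ones were called in the fit of every probe set, adjusted over probe sets. Those of Gpam lie right of 0 with both treatments, and the other probe sets of Cds2 lie at −0.06 to 0.34 with FGF21, below the one used (0.56).

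Over the set, 26 of the 39 genes were read by further probe sets that passed the filter, 39 in all. With the antibody all probe sets of a gene had the same direction in 23 of the 26 and with FGF21 in 19. Genes called on another probe set alone numbered 3 with the antibody (Acly, Agpat5 and Aqp7) and 2 with FGF21 (Acly and Scd2).

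The direct comparison of antibody-treated with FGF21-treated mice asks whether the genes differ between the agents. In limma's fit 0 of the 39 were called, against 0.372% of all genes, and 11 had an unadjusted p under 0.05, against 13.5%. The groups did not overlap in 6 (15.4%), 5 higher and 1 lower, against 4.69% of all genes (2.39% higher and 2.30% lower). A p that misses the threshold does not show equal levels, and the intervals below give the differences that these samples allow.

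Lpin1 came nearest, higher in every antibody sample than in every FGF21 sample by 0.44 ± 0.09 (adjusted p = 0.0522), with a 95% confidence interval of 0.24 to 0.63. It was called without control 34 (adjusted p = 0.00846) and under 8 of 12 other settings, and in no other of the 15 fits without 1 sample. Pnpla3 differed by 0.56 ± 0.18 (adjusted p = 0.195), interval 0.18 to 0.94, and Cds1 by 0.37 ± 0.11 (adjusted p = 0.169), interval 0.14 to 0.60. Both were called without control 34, with adjusted p of 0.0165 for Pnpla3 and 0.0353 for Cds1. Agpat2 (0.34) and Aqp7 (0.37) were also higher in each antibody sample than in each FGF21 sample, and Cds2 was lower in each, by −0.32 ± 0.10 (adjusted p = 0.177), interval −0.53 to −0.11.

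For the genes that both treatments moved, the intervals of antibody minus FGF21 included 0. They were −0.46 to 0.29 for Acaca, −0.06 to 0.33 for Mid1ip1 and −0.13 to 0.30 for Gpam. For Fasn the interval was −0.23 to 0.16, for Mlxipl −0.52 to 0.18 and for Pck1 −0.21 to 0.30. The difference in Srebf1 was 0.26 ± 0.11 (adjusted p = 0.347), interval 0.02 to 0.50.

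**Figure D5:**
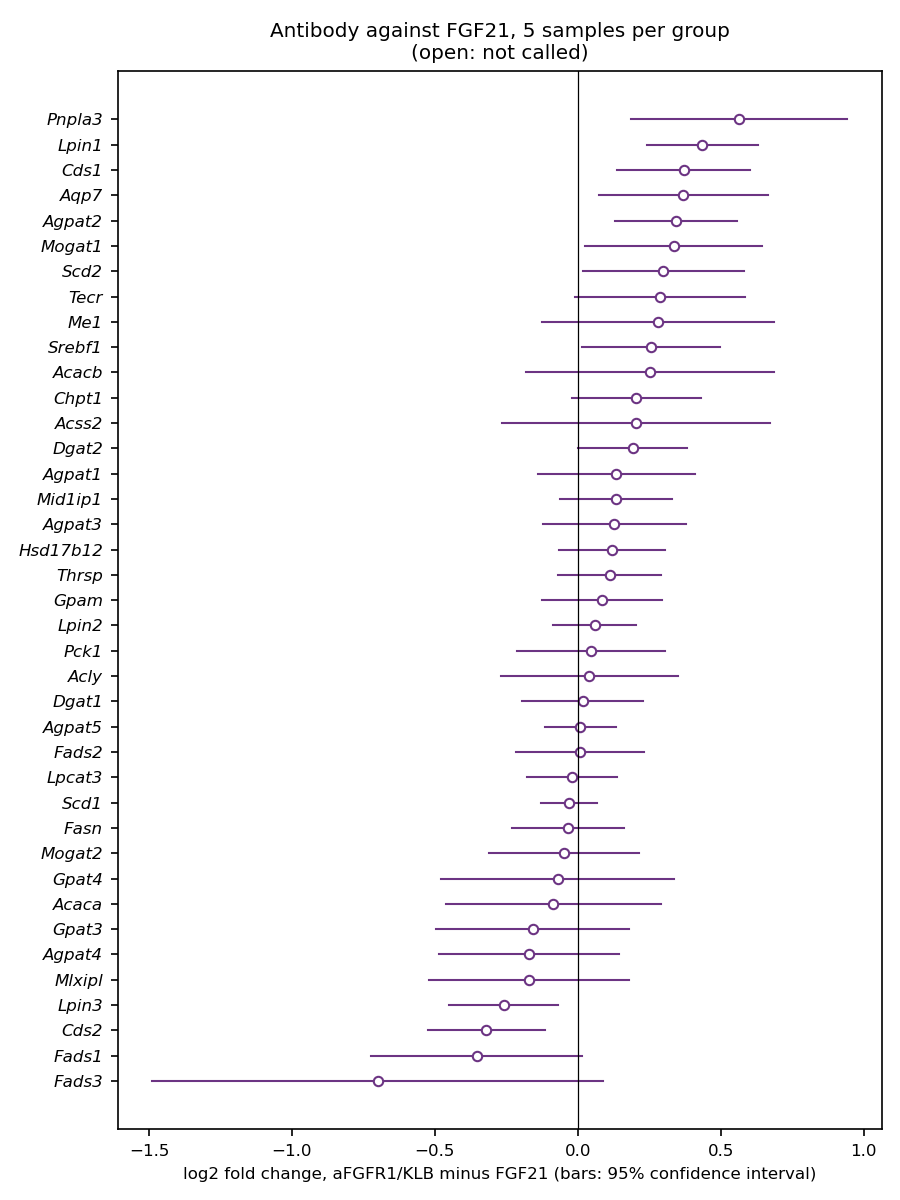
Log2 fold change of antibody minus FGF21 for the 39 genes, ordered by size, with 95% confidence intervals as bars and all points open because none was called. Pnpla3 and Lpin1 lie furthest right (0.56 and 0.44), and the intervals of Acaca, Fasn and Gpam span 0.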

How the data were processed

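For every probe set and sample the authors deposited a linear intensity (5.58 to 34652), normalised with RMA per the submitters' processing notes; its version, the chip definition and scan batches are not given in the sources used here. Array medians lay between 50.6 and 52.1. Samples were grouped by title. The analysis used log2 of these values and did not normalise them again. Of 45101 probe sets 34958 carried 1 symbol in GEO's platform annotation, 932 several and 9211 were not listed; 34754 matched RefSeq by Entrez ID and 0 symbols differed. Each gene took its brightest probe set, and a gene was tested if its mean exceeded 5.06 in log2, the 40th percentile over probe sets. The test was limma's (version 3.58.1, run in R 4.3.3; lmFit, then eBayes; 3 group means, 15 samples, 12 residual degrees of freedom, two-sided), with Benjamini-Hochberg adjustment over all genes in each comparison. Calls of other probe sets were adjusted over all probe sets of their separate fit. All adjusted p are limma's. The fit was tested on simulated data.

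Per-sample values are given for genes called in any comparison and for Srebf1, Mlxipl, Fasn, Acaca, Scd1, Gpam, Dgat2 and Pck1; of the other pathway genes the 10 with the smallest p, and the others called, are named. The genes, roles, lists and markers were chosen with earlier results of these data known. Alternatives covered the probe set rule, filter, normalisation, centring, samples fitted, variance trend, pseudocount, marker covariates and each sample left out; the combined macrophage and muscle covariate was added after the data were seen. The number of arrays limits the precision: the median standard error was 0.12 for the 39 genes and 0.10 for all genes.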

Additional observations from a re-analysis of the deposited data

Results flagged for a closer look

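In 19 of 117 groups of 5 samples (39 genes in 3 groups) 1 sample lay so far from the other 4 that its gap exceeded Dixon's critical value of 0.71 of the range, where chance flags about 1 in 20 groups. Values are log2 levels. Control 34 was the low sample in 9 of them: Acacb (11.38), Mlxipl (10.64), Pnpla3 (8.77), Agpat3 (11.08), Gpat3 (8.44), Lpin1 (12.35), Cds1 (8.14), Chpt1 (13.17) and Tecr (10.87). Control 35 was low in Scd2 (10.82). Antibody sample 44 was low in Fasn (14.01) and Me1 (12.11) and high in Srebf1 (11.48) and Pck1 (13.06), and antibody sample 42 was high in Lpin2 (8.88). FGF21 36 was high in Fads1 (8.25) and low in Cds1 (7.84), and FGF21 38 was high in Lpin2 (8.93) and in Lpcat3 (10.12). Control 34 and FGF21 36 also had the highest mean macrophage and fibroblast marker levels. They had the lowest means on the lists of brown adipocytes and of adipocytes of any kind. Whether these go together with the low values was not tested.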

How the results depend on the processing

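No paired analysis was possible because replicate numbers do not repeat between groups. With the antibody against control, leaving out 1 sample gave 2 to 9 calls among the 39 genes, 336 to 1140 among all genes and 5 to 12 among the other pathway genes. The same counts were 12, 1631 and 18 without control 34 and FGF21 36, 12, 1664 and 17 with the macrophage covariate, 11, 1684 and 16 with macrophage and muscle covariates, and 0, 165 and 3 with ribosomal centring. Fitting every probe set gave 1094 calls over all probe sets. With FGF21 against control, leaving out 1 sample gave 5 to 16, 463 to 2097 and 5 to 17, and the counts were 17, 2138 and 18 without the 2 samples, 14, 1374 and 16 with the macrophage covariate, 14, 1299 and 15 with both covariates, 1, 193 and 5 with ribosomal centring (12 of the 39 at an unadjusted p under 0.05), and 5, 322 and 3 with only the 2 groups compared. Between the treatments, leaving out 1 sample gave 0 to 3, 10 to 251 and 0 to 2, and the counts were 3, 241 and 3 without the 2 samples, 2, 137 and 3 with the macrophage covariate, 3, 191 and 4 with both covariates, and 0, 8 and 0 with ribosomal centring (7 of the 39 at an unadjusted p under 0.05). With only the 2 treated groups they were 2 and 87 among the 39 and all genes. Of the 39, Lpin1 was the 1 gene called with the mean of all probe sets, the 60th percentile filter (77 of all genes), the intensity trend (76) and log2(value + 16). Fitting every probe set gave 95 calls, and no filter or renewed quantile normalisation 0 other pathway genes. The highest leave-one-out counts all came without control 34. Among the genes followed through every setting, directions turned only for fold changes that were not called. These were near 0, except that Acss2 between the treatments was 0.20 in the main fit. Genes outside that set turned as well. Acacb went from 0.15 to −0.04 with the antibody without control 34 and FGF21 36. With FGF21 it went from −0.10 to 0.13 with the macrophage covariate. With the antibody, Mlxipl was −0.0081 after quantile normalisation, −0.15 without control 34 and FGF21 36, −0.0030 and −0.015 with the covariates and −0.15 to 0.074 with 1 sample left out; ribosomal centring gave Scd1 0.026, Dgat2 0.030, Lpin1 0.049 and Cds1 0.063; Pck1 was −0.035 without the 2 samples and −0.035 to 0.17 with 1 left out, and Cds1 −0.13 to 0.0072. With FGF21, Pck1 was −0.021 with the mean of all probe sets, −0.016 without the 2 samples and −0.081 to 0.12 with 1 left out. Between the treatments, ribosomal centring gave Fasn 0.052, Acaca 0.00048 and Scd1 0.055, Fasn was −0.085 to 0.0099 with 1 left out, the macrophage covariate gave Gpam −0.00082, Acss2 −0.019 and Pck1 −0.086, both covariates Acss2 −0.019 and Pck1 −0.086, and Pck1 was −0.019 without the 2 samples and −0.019 to 0.079 with 1 left out. The cause was not tested in any of these. Over all named genes, 1483 of the recomputed fold changes kept direction and side of the threshold, 144 lost a call, 44 gained one and 30 turned. Arrays give no read depth, Scd1 lay near the array maximum, and 5 samples per group limit the precision.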

Other observations

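Beyond the 40 genes, 79 further genes of the same pathways were listed, with earlier results of these data known, and 72 of them were tested. In limma's fit 6 rose and 1 fell with the antibody, against 2.69% of all genes called higher and 2.49% lower. With FGF21 8 rose and 2 fell, against 2.64% higher and 3.68% lower. Between the treatments 1 was higher with the antibody than with FGF21, against 0.129% of all genes. Elovl3, the elongase of saturated and monounsaturated very long chains that is typical of stimulated brown fat, was at 12.62, 12.65, 12.28, 12.41 and 11.77 in the antibody samples, 11.26, 12.17, 12.30, 11.73 and 11.76 in the FGF21 samples and 10.41, 10.36, 10.52, 9.54 and 10.41 in the control samples. All samples of both treatments lay above all controls, and the fold change was 2.10 ± 0.23 (adjusted p = 0.000331) with the antibody and 1.60 ± 0.23 (adjusted p = 0.00111) with FGF21. Hacd1 and Hacd2 encode dehydratases of the elongation cycle. Hacd2 differed by 0.66 ± 0.14 (adjusted p = 0.014) with the antibody and 0.54 ± 0.14 (adjusted p = 0.031) with FGF21, although the FGF21 call ended without control 31, 32 or 33 or FGF21 37, 38, 39 or 40 (adjusted p of 0.0591 to 0.0838), with the mean of its probe sets (0.0560), with renewed quantile normalisation (0.0512) and with only the 2 groups compared (0.0708). Hacd1 differed by 0.34 ± 0.07 (adjusted p = 0.0121) with the antibody and 0.21 ± 0.07 (adjusted p = 0.0818) with FGF21. Oxsm, the condensing enzyme of mitochondrial fatty acid synthesis, rose with the antibody by 0.47 ± 0.11 (adjusted p = 0.0221), a call that ended without control 33 or antibody sample 41 or 42 (adjusted p of 0.0504 to 0.0613) and with the mean of its probe sets, where it was 0.17 (adjusted p = 0.373), and with FGF21 differed by 0.11.

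Of 23 tested genes listed under phospholipid synthesis 1 rose with the antibody, against 2.69% of all genes, and 5 with FGF21, against 2.64%, and the difference between these counts was not tested. Chka, choline kinase alpha, the entry to phosphatidylcholine, was at 6.66, 7.09, 7.08, 6.89 and 6.83 in the antibody samples, 6.95, 7.06, 7.17, 7.10 and 7.12 in the FGF21 samples and 6.42, 6.53, 6.46, 6.29 and 6.60 in the control samples, with all treated samples above all controls and fold changes of 0.45 ± 0.09 (adjusted p = 0.00918) with the antibody and 0.62 ± 0.09 (adjusted p = 0.00092) with FGF21. With the mean of its probe sets the antibody value was 0.17 (adjusted p = 0.328), not called, and that of FGF21 0.53. Plpp2, Plpp1 and Plpp3, lipid phosphate phosphatases, and Selenoi were called with FGF21 and not with the antibody. Their fold changes were 0.12, 0.51, 0.13 and 0.02 with the antibody and 0.45, 0.67, 0.43 and 0.28 with FGF21, and none of the 4 was called between the treatments. The call of Plpp2 ended with the mean of its probe sets, at 0.16 (adjusted p = 0.244), and with only the 2 groups compared (adjusted p = 0.0665). In the latter fit the other pathway genes still called with FGF21 were Elovl3, Chka and Prkaa1. Plpp1, Plpp3 and Selenoi thus lost their calls there too. Prkaa1, the catalytic alpha1 subunit of AMPK, the kinase that inhibits acetyl-CoA carboxylase, rose with both, by 0.61 ± 0.11 (adjusted p = 0.00631) with the antibody and 0.61 ± 0.11 (adjusted p = 0.0043) with FGF21. Cebpa, an adipogenic transcription factor, fell with both, by a log2 difference of −0.43 ± 0.10 (adjusted p = 0.0241) with the antibody and −0.46 ± 0.10 (adjusted p = 0.0138) with FGF21, and the antibody call ended without control 32, 33 or 35 or antibody sample 41, 42, 43 or 45 (adjusted p of 0.0522 to 0.0684) and the FGF21 call with only the 2 groups compared (0.0608). Akt2, a kinase of insulin signalling, differed by −0.24 ± 0.10 (adjusted p = 0.178) with the antibody and −0.39 ± 0.10 (adjusted p = 0.029) with FGF21, and the FGF21 call ended without control 31, 32, 33 or 35 or FGF21 36, 38 or 40 (adjusted p of 0.0527 to 0.0828), with the mean of its probe sets (0.0562) and with only the 2 groups compared (0.111). Insig1, the SREBP-retaining protein whose gene SREBP activates, was at 11.51, 11.31, 11.23, 10.98 and 11.03 in the antibody samples, 10.17, 10.58, 10.79, 10.09 and 10.33 in the FGF21 samples and 10.96, 11.24, 11.03, 10.39 and 10.95 in the control samples. Every antibody sample lay above every FGF21 sample, by 0.82 ± 0.16 (adjusted p = 0.0474), a call that ended in 13 of 15 fits without 1 sample (0.0550 to 0.136), all but those without control 34 or FGF21 38, and with no filter (0.0590) or renewed quantile normalisation (0.0557). Ribosomal centring also ended calls of these other pathway genes. Among the genes followed through every setting they were Cebpa and Hacd2 with both treatments, and Chka (adjusted p = 0.0675) and Oxsm with the antibody. They were also Plpp2 and Akt2 with FGF21, and Insig1 between the treatments. Plpp1, Plpp3 and Selenoi were not followed in this way. The count given above for FGF21 with centring is lower than this list leaves, so not all of those kept their calls. For Hacd2 with the antibody the adjusted p was then 0.0644.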
